A study of Homo sapiens with 3 samples.

Results

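The genes described here are 10 components of the actin cytoskeleton, the cytoplasmic actins ACTB and ACTG1, the beta-thymosins TMSB4X and TMSB10, profilin PFN1, cofilin CFL1, alpha-actinin ACTN1, transgelin TAGLN, tropomyosin TPM1 and the myosin regulatory light chain MYL9. They were chosen by gene symbol from a table of 44591 genes, with their RPKM values in these libraries already known, so their own values are a description. Caki-1, an established human line of clear cell renal cell carcinoma, had received a control siRNA (si-Control) or 1 of 2 siRNAs against RBCK1, also called HOIL-1, and RNA was taken 48 h later. The study's general transfection protocol gives 10 nmol/L of siRNA, while the dose given to the sequenced cells is not stated separately. The RBCK1 siRNAs, si-RBCK1 #1 and si-RBCK1 #2, are called siRNA #1 and siRNA #2 below. RBCK1 is a subunit of the ligase that builds linear ubiquitin chains. The 3 libraries stand for 1 condition each. Differences therefore have no replicate check, no p-value is given, and the siRNAs, being separate reagents, do not replicate one another.

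Actin is a globular protein that assembles into polar filaments, and cells keep a large pool of unassembled monomers. Thymosins hold monomers in reserve, profilin feeds them to growing filament ends, and cofilin severs and disassembles older filaments. Alpha-actinin and transgelin link filaments side by side, tropomyosins wind along them, and non-muscle myosin II, of which MYL9 is a light chain, pulls on them. Many of these genes share a transcriptional circuit in which serum response factor (SRF) is activated by MRTF cofactors once the pool of free actin monomers shrinks.

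The levels are RPKM values, read numbers divided by the length of the gene and the size of the library, which makes levels comparable between genes. The whole reads behind them were recovered, and the library totals were 36926834 reads (si-Control), 40442939 reads (siRNA #1) and 36344428 reads (siRNA #2). Log2 ratios are on the log2(RPKM + 1) scale unless stated, which understates changes of low genes, and exact Clopper-Pearson intervals (95%) on reads cover counting error only, not differences between cultures. In bulk RNA, fewer cells with a transcript and less of it per cell cannot be told apart. The targeted RBCK1 was at 33.3 RPKM in the control, 9.97 RPKM under siRNA #1 and 12.3 RPKM under siRNA #2. The sense strands of both siRNAs, from the study's list of oligonucleotides, are shown because they define the compared libraries, with capitals marking the bases opposite positions 2 to 8 of the guide strand:
si-RBCK1 #1: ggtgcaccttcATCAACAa
si-RBCK1 #2: ggattaccagcGATTTCTa

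All 10 genes passed the filter of a mean of at least 1 RPKM, as did 12403 genes of the table. With si-RBCK1 #1, 9 of the 10 were higher than in the control, where 51.5% of all genes were higher, and under siRNA #2 the same count was 9 of 10, where 53.5% of all genes were higher. TPM1 was the lower gene in each comparison. The differences were of moderate size. At least 2-fold higher were 0 of 10 under siRNA #1 (2.91% of all genes) and 1 of 10, TAGLN, under siRNA #2 (2.5% of all genes), and 0 of 10 were at least 2-fold lower with either siRNA (3.27% and 2.27% of all genes). At a limit of 1.5-fold, 5 of 10 were higher under siRNA #1 (12.1% of all genes) and 5 of 10 under siRNA #2 (11.3% of all genes). Several genes lay close to that limit, and the counts were 3 and 4 with libraries scaled to equal medians and 2 and 5 with equal totals. The median log2 ratio over the 10 genes was 0.58 under siRNA #1 and 0.60 under siRNA #2, beside 0.019 and 0.035 over all genes. Since the genes were chosen on this contrast, these counts and medians support nothing beyond their own values, and both comparisons share the si-Control library.

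**Figure D1:**
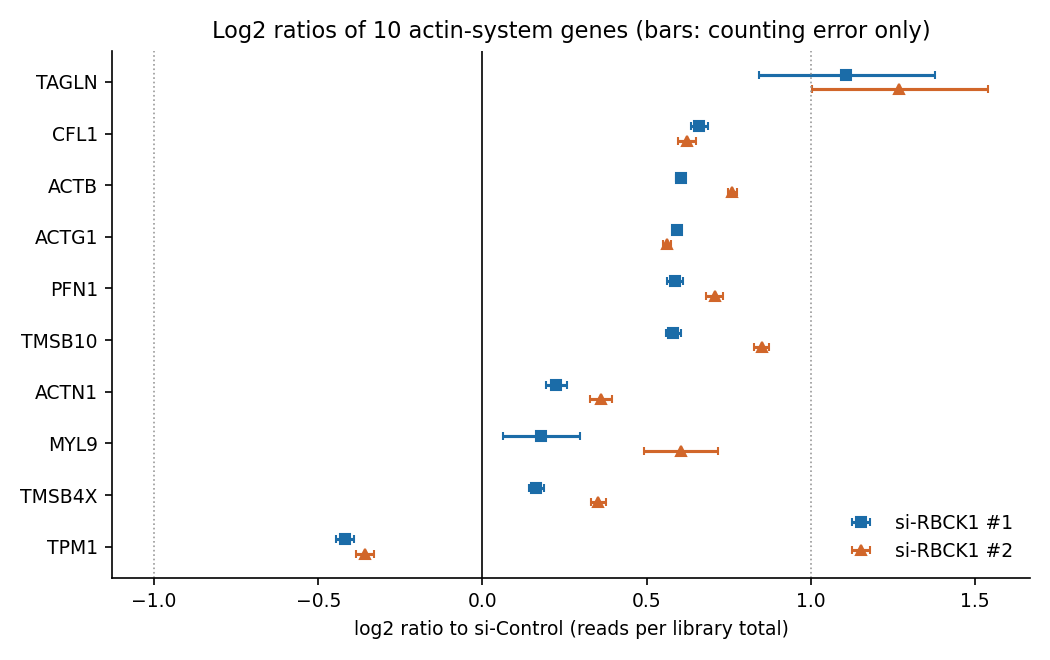
Log2 ratios against si-Control for the 10 genes, computed from recovered reads over library totals without a pseudocount (squares, si-RBCK1 #1, and triangles, si-RBCK1 #2). Bars are exact 95% intervals for counting error only, and dotted lines mark 2-fold. TAGLN lies farthest to the right with the widest bars, and TPM1 is the gene left of 0 in both comparisons.

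Both cytoplasmic actins were higher. ACTB (chromosome 7, 5566779 to 5570232, minus strand in the table's hg19 coordinates) was at 985 RPKM in the control, 1497 RPKM under siRNA #1 and 1670.35 RPKM under siRNA #2. Its log2 ratios were 0.60 (interval on reads 0.59 to 0.62) and 0.76 (0.75 to 0.78), from 65925, 109736 and 110003 reads. ACTG1 (chromosome 17, 79476997 to 79479892, minus strand) was at 1518 RPKM in the control, 2288 RPKM under siRNA #1 and 2242 RPKM under siRNA #2. Its log2 ratios were 0.59 (interval 0.58 to 0.60) and 0.56 (0.55 to 0.57), from 118025, 194782 and 171532 reads. The control library was the lowest for each actin, and the si-RBCK1 libraries differed little from each other for ACTG1. Summed, the actins took 0.498% of the library's reads in the control, 0.753% under siRNA #1 and 0.775% under siRNA #2. There were 0.649 ACTB RPKM per ACTG1 RPKM in the control, 0.654 under siRNA #1 and 0.745 under siRNA #2. Of the 4 muscle actin genes, the smooth muscle actin ACTA2 alone passed the filter, at 5.93 RPKM, 7.0 RPKM and 6.89 RPKM (log2 ratios 0.21 and 0.19).

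The thymosins differed in how much higher they were. TMSB10 (chromosome 2, 85132763 to 85133799, plus strand) was at 1408 RPKM in the control, 2107 RPKM under siRNA #1 and 2539.8 RPKM under siRNA #2. Its log2 ratios were 0.58 (interval 0.56 to 0.60) and 0.85 (0.83 to 0.87). TMSB4X (chromosome X, 12993226 to 12995346, plus strand) was at 1169.9 RPKM, 1311 RPKM and 1495 RPKM, log2 ratios of 0.16 (interval 0.14 to 0.19) and 0.35 (0.33 to 0.38). TMSB10 thus stood at 1.20 times the TMSB4X level in the control, 1.61 times under siRNA #1 and 1.70 times under siRNA #2. Set against the actins, the summed thymosin level was 1.03 RPKM per actin RPKM in the control, 0.903 under siRNA #1 and 1.03 under siRNA #2.

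Profilin and cofilin were higher by amounts close to those of the actins. PFN1 (chromosome 17, 4848945 to 4852381, minus strand) was at 420.4 RPKM in the control, 631 RPKM under siRNA #1 and 686 RPKM under siRNA #2, log2 ratios of 0.59 (interval 0.56 to 0.61) and 0.71 (0.68 to 0.73). CFL1 (chromosome 11, 65622282 to 65625804, minus strand) was at 421 RPKM, 666 RPKM and 649 RPKM, log2 ratios of 0.66 (interval 0.64 to 0.69) and 0.62 (0.60 to 0.65). Relative to actin their levels differed little between the libraries, which restates the similar log2 ratios. Per actin RPKM there were 0.168 PFN1 RPKM in the control, 0.167 under siRNA #1 and 0.175 under siRNA #2. The CFL1 values were 0.168, 0.176 and 0.166 in the same order. Relatives of these genes differed in direction. PFN2, the second profilin, was lower, at 130.2 RPKM, 86.5 RPKM and 81.3 RPKM (log2 ratios -0.58 and -0.67). CFL2, the muscle-type cofilin, which was named after its values were seen, was at 26.3 RPKM, 24.6 RPKM and 16.6 RPKM (log2 ratios -0.09 and -0.63), and DSTN (destrin), of the same family and also named after its values were seen, was at 104.5 RPKM, 127 RPKM and 112 RPKM (0.28 and 0.10).

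Of the filament crosslinkers, transgelin had the largest ratios of the 10 genes and the lowest level. TAGLN (chromosome 11, 117070040 to 117075508, plus strand) was at 2.89 RPKM (166 reads) in the control, 6.23 RPKM (392 reads) under siRNA #1 and 6.96 RPKM (394 reads) under siRNA #2. Its log2 ratios were 0.89 and 1.03 with the pseudocount, and 1.11 (interval 0.84 to 1.38) and 1.27 (1.00 to 1.54) on reads alone. On reads the estimates with both siRNAs were thus above 2-fold, but the interval under siRNA #1 reached below 2-fold. With the pseudocount siRNA #1 fell short of 2-fold. Smooth muscle genes are known to include TAGLN, so the other smooth muscle markers are given beside it. Of 8 such genes 2 passed the filter, ACTA2 and SMTN, and the sum over all 8 was 13.4 RPKM in the control, 24.4 RPKM under siRNA #1 and 25.1 RPKM under siRNA #2. SMTN (smoothelin) made most of that difference, with log2 ratios of 1.23 and 1.32. MYOCD, the muscle cofactor of SRF, was at most at 0.0058 RPKM, MYH11 at most at 0.082 RPKM and DES at most at 0.033 RPKM. Also below the filter, CNN1 was lower with both siRNAs, at 0.525 RPKM, 0.363 RPKM and 0.173 RPKM. SYNPO2 was lower too, at 0.164 RPKM, 0.060 RPKM and 0.080 RPKM, and LMOD1 was at 0.157 RPKM, 0.256 RPKM and 0.139 RPKM. The part of these markers in the TAGLN values was not tested.

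ACTN1 (chromosome 14, 69340840 to 69446083, minus strand) was at 97.6 RPKM in the control, 114 RPKM under siRNA #1 and 125 RPKM under siRNA #2, log2 ratios of 0.22 (interval 0.19 to 0.26) and 0.36 (0.33 to 0.39). Its paralog ACTN4, named after its values were seen, differed more, with 79.5 RPKM, 144 RPKM and 167 RPKM (log2 ratios 0.85 and 1.06). With si-Control ACTN1 was the more abundant alpha-actinin, and with either RBCK1 siRNA ACTN4 was.

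TPM1 went the other way. This tropomyosin (chromosome 15, 63334838 to 63364114, plus strand) was at 163 RPKM in the control, 122 RPKM under siRNA #1 and 128 RPKM under siRNA #2. Its log2 ratios were -0.42 (interval on reads -0.45 to -0.39) and -0.36 (-0.39 to -0.33), from 23680, 19411 and 18190 reads. The other tropomyosins did not share this direction with both siRNAs. TPM2 was at 161 RPKM, 234 RPKM and 234 RPKM (log2 ratios 0.54 and 0.54). TPM3 had log2 ratios of 0.50 and 0.42, and TPM4 had 0.09 and -0.27. With si-Control TPM1 and TPM2 stood at nearly equal levels, and with each RBCK1 siRNA TPM2 was the higher of them.

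MYL9 differed most between the siRNAs. The gene (chromosome 20, 35169887 to 35178226, plus strand) was at 24.6 RPKM (1086 reads) in the control, 27.8 RPKM (1347 reads) under siRNA #1 and 37.4 RPKM (1625 reads) under siRNA #2. Its log2 ratios were 0.17 (interval on reads 0.06 to 0.30) and 0.58 (0.49 to 0.72). The closely related light chain genes MYL12A (268 RPKM in the control, log2 ratios -0.12 and -0.13) and MYL12B (346 RPKM, log2 ratios -0.22 and -0.17) were far more abundant than MYL9 and slightly lower with both siRNAs. The essential light chain MYL6 was the gene of this group with the largest difference, at 191 RPKM, 410 RPKM and 408 RPKM (log2 ratios 1.10 and 1.09).

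The 10 genes spanned levels from 2.89 RPKM to 1518 RPKM in the control. From high to low their order there was ACTG1, TMSB10, TMSB4X, ACTB, CFL1, PFN1, TPM1, ACTN1, MYL9 and TAGLN. CFL1 (Poisson interval 416 to 427 RPKM) and PFN1 (415 to 426 RPKM) were neighbours that did not differ beyond counting error. With either si-RBCK1 siRNA ACTB stood above TMSB4X, and under siRNA #2 TMSB10 stood above ACTG1. Among all genes of the table, ACTG1 ranked 20 by RPKM in the control, 15 under siRNA #1 and 14 under siRNA #2, and ACTB ranked 45, 27 and 23. TMSB10 ranked 22, 16 and 12. Together the 10 genes made up 1.498% of the summed RPKM in the control, 2.03% under siRNA #1 and 2.26% under siRNA #2.

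**Figure D2:**
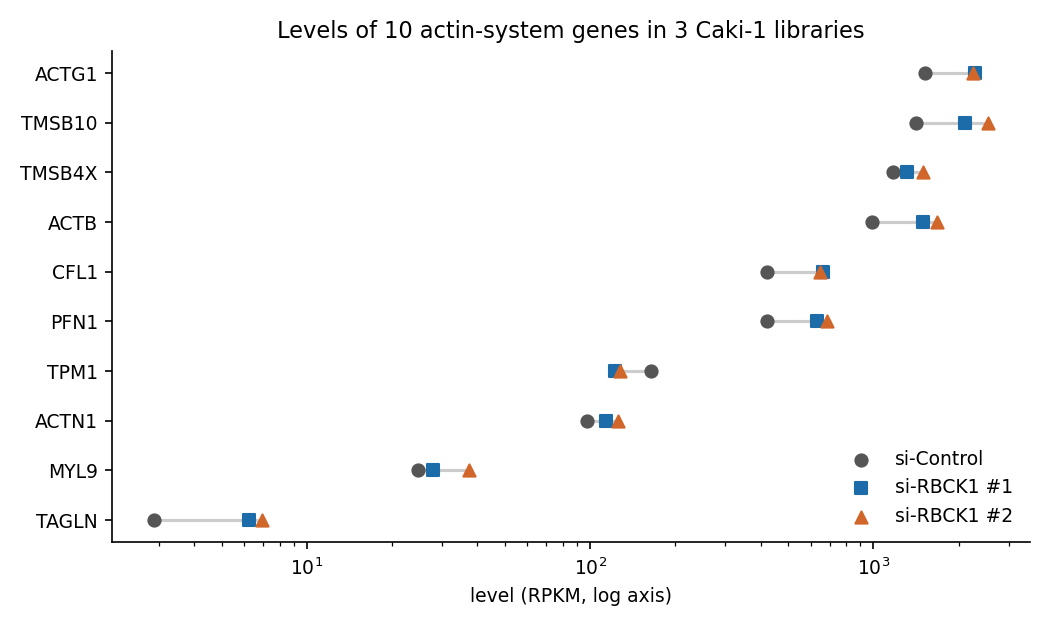
Level in RPKM (log axis) of each of the 10 genes in the 3 libraries (circle, si-Control; square, si-RBCK1 #1; triangle, si-RBCK1 #2), ordered by the si-Control level. The circle is the leftmost symbol for 9 genes and the rightmost for TPM1, at 163 RPKM against 122 RPKM and 128 RPKM.

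A direct comparison of the si-RBCK1 libraries does not use si-Control. With si-RBCK1 #2, 8 of the 10 genes were higher than under siRNA #1, beside 51.8% of all genes and 35.8% of genes averaging 100 RPKM or more. The median log2 ratio was 0.14, beside 0.012 over all genes. The genes were chosen with the values of both siRNAs known, so this count and median support nothing beyond their own values. MYL9 differed most, with a log2 ratio of 0.41 (interval on reads 0.32 to 0.53), followed by TMSB10 with 0.27 (0.25 to 0.29) and TMSB4X with 0.19 (0.17 to 0.21). ACTG1 (-0.03, interval -0.04 to -0.02) and CFL1 (-0.04, interval -0.06 to -0.02) were the lower genes. The interval of TAGLN (-0.04 to 0.37) held 0, so that its difference between the siRNAs was not detectable at this depth.

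Across the transcriptome, the ratios varied with the level and length of genes. Among protein-coding genes of at least 300 RPKM on average, where 6 of the 10 genes lie, the median log2 ratio was 0.23 under siRNA #1 and 0.13 under siRNA #2 (177 genes, 70.6% and 68.9% higher), while among genes from 1 to 10 RPKM it was -0.04 and 0.02. By the gene length that the recovered reads imply, genes under 1000 nt had medians of 0.17 and 0.16, and genes of 8000 nt or more had medians of -0.16 and -0.03. The 10 genes have implied lengths from 482 nt (TMSB10) to 3925 nt (TPM1). An implied length is the smallest that fits the values, so the length used for the RPKM can be larger. The part of level and length in the members' values was not tested.

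**Figure D3:**
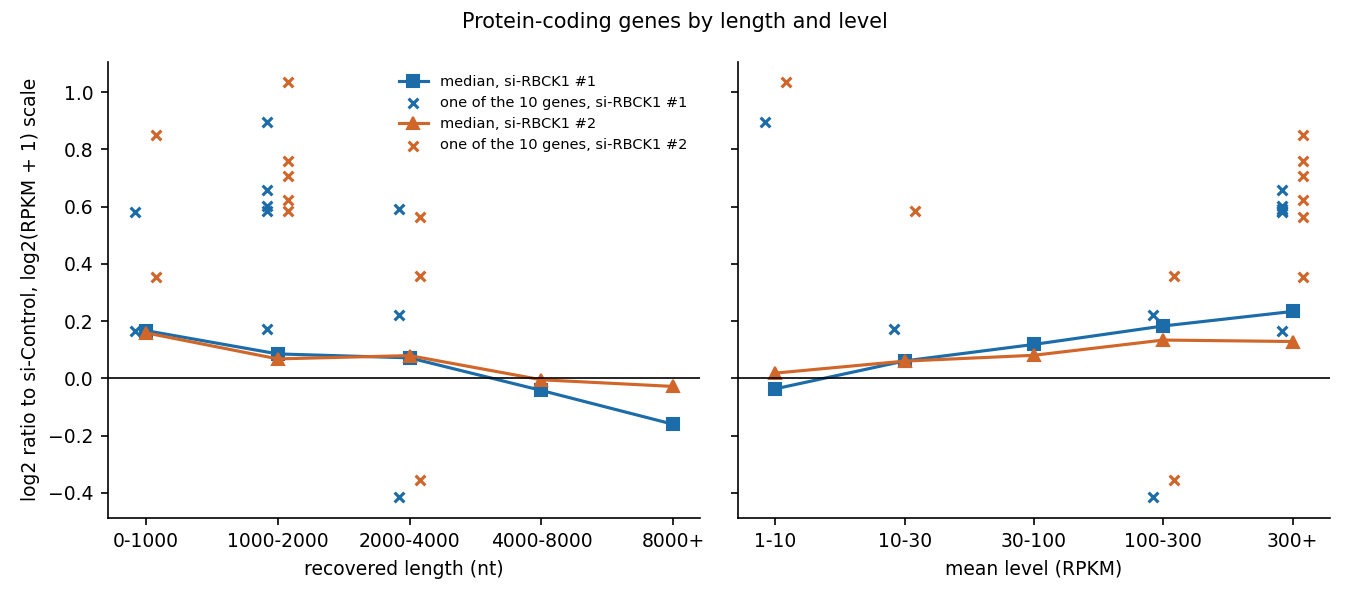
Median log2 ratio to si-Control of protein-coding genes grouped by implied length (left) and mean level (right), as lines with squares for si-RBCK1 #1 and triangles for si-RBCK1 #2, and each of the 10 genes as crosses in its class. Medians decline with length from 0.17 to -0.16 for si-RBCK1 #1, and 9 of the 10 genes have crosses above 0.

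**Figure D4:**
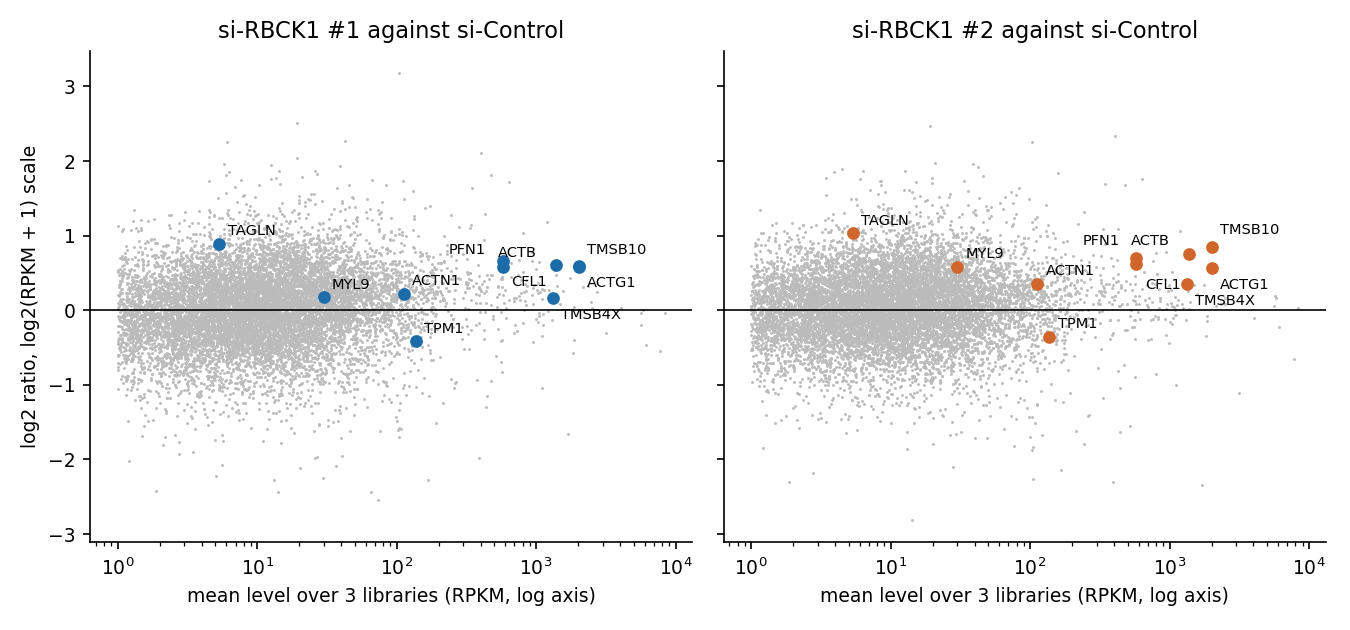
Log2 ratio to si-Control on the log2(RPKM + 1) scale against the mean level over the 3 libraries (log axis) for protein-coding genes (grey), with the 10 genes coloured and named, for si-RBCK1 #1 (left) and si-RBCK1 #2 (right). ACTB, ACTG1, TMSB10, PFN1 and CFL1 lie at the abundant end between 0.56 and 0.85. TMSB4X, also at that end, lies lower, at 0.16 (left) and 0.35 (right), and TPM1 lies below 0.

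To see whether the rest of the actin machinery followed, 134 genes in 12 lists by role were examined, 124 of which passed the filter. Without the 10 genes, 114 list genes had medians of -0.03 (siRNA #1, 56 higher) and 0.01 (siRNA #2, 58 higher). Thus 47 were higher with both siRNAs, 47 were lower with both and 20 went in opposite directions. These counts are a description and were not tested. The share of all genes that went the same way with both siRNAs was not computed, and both comparisons share the si-Control library. Agreement between the siRNAs, here and in the lists below, is therefore not a trait of these genes that the counts can show.

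Among monomer-binding genes other than the thymosins and PFN1, 6 passed, of which 1 was higher with both siRNAs and 3 were lower with both. The higher gene was CAP1, which recycles monomers with cofilin, at 133 RPKM, 164 RPKM and 159.6 RPKM (log2 ratios 0.30 and 0.26). The 11 severing and capping genes other than CFL1 had medians of -0.03 and 0.01. WDR1, a cofactor of cofilin, was the most abundant of them, with log2 ratios of 0.02 and 0.21. CAPZA1, a capping protein subunit, had 0.26 and 0.19, and SCIN (scinderin) had -0.11 and -0.12.

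Genes of the Arp2/3 complex, which starts new filaments, and of its activators went both ways. Of 18 genes of the Arp2/3 complex and the factors that switch it on, 5 were higher and 9 lower with both siRNAs (medians -0.07 and -0.04). The complex subunit ARPC3, the most abundant, was at 273 RPKM, 252 RPKM and 236 RPKM (log2 ratios -0.12 and -0.21). The subunits ARPC4 (0.34 and 0.46) and ARPC5 (0.12 and 0.22), named after their values were seen, were higher. Within the WAVE complex, CYFIP1 was higher (0.48 and 0.55) and its partner NCKAP1 was lower (-0.61 and -0.55).

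Formins and elongation factors held the widest range of values. Of 16 genes, 3 were at least 2-fold lower under siRNA #1 (3.27% of all genes) and 4 under siRNA #2 (2.27% of all genes). With each siRNA 1 was at least 2-fold higher (2.91% and 2.5% of all genes). Over all lists together the lower counts were also 3 and 4, and they became 0 and 1 with a pseudocount of 5 RPKM. DIAPH2, a formin that extends unbranched filaments, was at 5.81 RPKM, 1.70 RPKM and 1.48 RPKM, log2 ratios of -1.33 and -1.46. ENAH, which shields growing ends from capping, was the most abundant in the control but not with either RBCK1 siRNA, at 75.2 RPKM, 38.2 RPKM and 35.4 RPKM (-0.96 and -1.07). FHOD1 ranked first among the 6 genes that were higher with both siRNAs, at 7.90 RPKM, 19.4 RPKM and 21.3 RPKM (log2 ratios 1.20 and 1.32). Among the other genes, DIAPH3 (-1.16 and -1.25), SPIRE1 (-0.99 and -1.26), FHOD3 (-1.11 and -0.82) and FMNL1 (-0.97 and -0.85) were lower and INF2 (0.68 and 0.76) was higher, all of them named after their values were seen.

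Among 15 crosslinking and side-binding genes other than TAGLN and ACTN1, 8 were higher and 4 lower with both siRNAs (medians 0.11 and 0.14). TAGLN2, the abundant relative of TAGLN, was at 334 RPKM, 414 RPKM and 413 RPKM (log2 ratios 0.31 and 0.30). FSCN1 (fascin), which bundles filaments in cell protrusions, was the highest-ranked gene of those higher with both siRNAs, at 8.82 RPKM, 17.2 RPKM and 22.7 RPKM (0.89 and 1.27), and LCP1 (plastin 2) was the highest-ranked of those lower with both (-0.82 and -0.52). Of the 9 genes in the list of myosin II and its regulators other than MYL9, 2 were higher and 5 lower with both siRNAs. The higher genes were MYH10 and MYL6. The lower genes were the light chains MYL12A and MYL12B and the regulators PPP1R12A, ROCK1 and ROCK2.

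The 14 genes that link filaments to adhesions and membranes had medians of 0.11 and 0.17. LASP1 ranked first among those higher with both siRNAs, at 59.3 RPKM, 128 RPKM and 128 RPKM (log2 ratios 1.09 and 1.09). ZYX (zyxin) was the most abundant in the control, though not with either RBCK1 siRNA, at 167 RPKM, 149 RPKM and 171 RPKM (-0.16 and 0.04), and PARVA (parvin alpha) ranked first among those lower with both (-0.24 and -0.59).

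Genes known as SRF and MRTF targets, a list that holds 6 of the 10 genes, had medians of 0.21 under siRNA #1 and 0.44 under siRNA #2. Its 12 other genes that passed had medians of 0.18 and 0.28, with 7 higher and 1 lower with both siRNAs. VCL (vinculin) ranked first among those higher with both, at 29.1 RPKM, 47.1 RPKM and 49.1 RPKM (log2 ratios 0.67 and 0.74). FLNA (filamin A) was the most abundant, at 233 RPKM, 258 RPKM and 282 RPKM (0.15 and 0.28). FHL1 was the lower gene, with log2 ratios of -0.64 and -0.46. SRF itself was at 12.3 RPKM, 12.7 RPKM and 11.6 RPKM, and of SRF and its cofactors 4 of the 5 genes that passed were lower with both siRNAs. ELK1 was the most abundant of them (log2 ratios -0.05 and -0.11), and ELK4 ranked first among the lower ones (-0.31 and -0.23).

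SRF binds a motif called the CArG box, and the promoters of these genes were searched for it because several of them differed in the same direction. RefSeq promoters (GRCh38.p14, 250 bases before to 50 after a start) were at hand for 7 of the 10 genes, and not for ACTB, TAGLN and MYL9. The box is symmetric in form, so 1 scan covers both strands. It was found in the promoters of ACTG1 and ACTN1, that is, in 2 of 10 promoter windows of the 7 genes, beside 1.29% of all 35116 windows. Counted by gene, 2 of these 7 genes had a box, and so did 7 of 13 SRF and MRTF targets outside the 10 genes, beside 1.60% of all 27305 genes. SRF binds this box, so boxes in genes already known as its targets say nothing about these libraries. The windows that hold a box are shown for 2 of the 10 genes with the box in capitals, ACTG1 at chr17:81512874-81512903 and ACTN1 at chr14:68977718-68977747, each on the minus strand. They start their box 94 bases and 171 bases before a start site:
ACTG1: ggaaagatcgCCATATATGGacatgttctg
ACTN1: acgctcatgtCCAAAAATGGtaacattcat
A match describes the letters of the window and is not evidence of binding. The other genes searched, TMSB10, TMSB4X, PFN1, CFL1 and TPM1, had 0 boxes in their windows, and the part of the box in the values was not tested.

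The transcripts of the 10 genes were also searched for the siRNA bases shown in capitals above. In the longest protein-coding transcript of each gene (GENCODE v29), ATCAACA was present in PFN1 and ACTN1 (2 of 10 genes, 23.8% of 10553 genes searched) and GATTTCT was present in ACTG1 and TAGLN (2 of 10, 29.2%). The full site of either siRNA was in RBCK1 and in 0 of the 10 genes. The part of such matches in the values was not tested.

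Actins, thymosins, profilin and cofilin have many processed copies in the genome whose reads may be hard to assign. Reads of such copies, estimated from their span in the genome, came to at most 2.92% of the reads of their parent gene (TMSB4X under siRNA #2) and, for ACTB and ACTG1, to at most 0.238%. Summing each gene with its copies left 9 of 10 genes higher with each siRNA and changed the CFL1 log2 ratio under siRNA #1 to 0.63. The copy with the most reads, TMSB4XP8, was at 24.5 RPKM, 27.2 RPKM and 42.5 RPKM. How reads that fit several places were counted is not given in the sources used here. On the opposite strand of TPM1 lies an antisense gene, ENSG00000259498.1, listed at 2.85 RPKM, 3.77 RPKM and 4.18 RPKM, and whether counting used the strand is not given either.

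By the distance between the pairs of log2 ratios, the gene of the 10 with the pattern most like ACTB was PFN1 (distance 0.06), followed by TMSB10 (0.09) and CFL1 (0.15). Over all protein-coding genes and the same 2 ratios from 3 libraries, the nearest were ATP13A2, HJURP, BDH1, EOGT and PMF1 (distances 0.010 to 0.026), and their control levels lay between 1.08 RPKM and 13.2 RPKM. With 2 ratios that share a control library, such likeness is a weak description.

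The cell line was checked against markers of its origin. PAX8, a renal lineage factor, was at 124 RPKM in the control, and KRT8, KRT18 and VIM were at 65.6 RPKM, 95.3 RPKM and 664 RPKM. The other renal and epithelial markers examined, PAX2, EPCAM, CDH1, CDH6, KRT19 and CA9, were below 1 RPKM there. PAX8 was lower with both siRNAs (log2 ratios -0.59 and -0.22), and CDH6 was higher, at 0.866 RPKM, 3.53 RPKM and 2.86 RPKM (1.28 and 1.05). The intermediate filament genes were higher under siRNA #1 and #2, VIM with log2 ratios of 1.19 and 1.07, KRT8 with 1.38 and 1.84 and KRT18 with 0.57 and 0.84. Fibroblast markers summed to 5.78 RPKM in the control, 4.18 RPKM under siRNA #1 and 5.26 RPKM under siRNA #2. Of these 1 of 8 passed, COL1A1, at 4.68 RPKM, 3.21 RPKM and 4.41 RPKM. Endothelial markers summed to at most 0.098 RPKM (0 of 6 passed). Of the leukocyte markers 1 of 6 passed, and the list summed to 41.9 RPKM, 51.4 RPKM and 52.4 RPKM. Nearly all of that was CD68, at 41.8 RPKM, 51.0 RPKM and 52.3 RPKM, and the other leukocyte markers were below 1 RPKM in every library.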

How the data were processed

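RNA of 3 Caki-1 libraries was sequenced, 1 per condition, after ribosomal RNA removal and with a directional kit. The authors deposited 1 RPKM value per gene and library for 44591 genes, 19233 of them protein-coding. The submitters' processing notes name TopHat2, HTSeq, Trimmomatic, FastQC and hg19, without roles; the gene annotation is not given in the sources used here. The table's columns for the authors' own comparison (mean levels, fold change, p-value, q-value) were not used. The 1 si-Control entry that is not a number left its gene out.

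Library totals were found from RNAs of up to 200 nt as the number that makes their RPKM values whole reads. For each gene the smallest length of up to 50000 nt giving 3 whole read numbers (tolerance 0.002) was then taken. Reads and lengths are therefore minimum numbers. Genes averaging 1 RPKM or more were kept, and log2 ratios used a pseudocount of 1 RPKM. No test was run, since 1 library per condition gives no spread. Genes and lists were chosen with earlier results of these data known. Beside the 10 genes, the text names RBCK1, in each list the most abundant gene and the first-ranked gene of those higher and of those lower with both siRNAs (by the smaller of its ratios in size), and the 5 genes nearest to ACTB; others were named after their values were seen, and so were markers and cofactors given beside a result. Scaling, pseudocounts, filters, fold limits and summed copies were varied. The recovery of totals and reads and the counts past 2-fold were tried on simulated libraries with planted 4-fold changes and counting noise only. Smaller changes and the other steps were not simulated. Intervals came from scipy 1.17.1 and figures from matplotlib 3.10.9, under Python 3.11.15 with pandas 2.3.3 and numpy 2.4.6. Some genes that this rule names, and 1 of the lists, are not reported here.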

Additional observations from a re-analysis of the deposited data

How the results depend on the processing

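No paired analysis was possible because no condition had more than 1 library. With every alternative that keeps all 10 genes, 9 of them stayed higher with each siRNA. Their median log2 ratio under siRNA #1 was 0.54 with a pseudocount of 5 RPKM and 0.53 with equal totals. Under siRNA #2 it was 0.55 with equal medians and 0.57 with equal totals, and between the siRNAs it was 0.10 with equal medians. These scalings shift all genes by -0.057 to -0.0094 on the log2 scale. The number at least 2-fold higher under siRNA #1 was 1 with a pseudocount of 0.1 RPKM or with reads alone (an alternative chosen after seeing the data). Under siRNA #2 it was 0 with a pseudocount of 5 RPKM, equal medians, a limit of 4-fold or a mean of at least 100 RPKM. The gene in question is TAGLN in each case. At 1.5-fold it was 5 with each siRNA, 3 (siRNA #1) and 4 (siRNA #2) at 1.5-fold with equal medians, and 2 and 5 at 1.5-fold with equal totals, the last 4 values from alternatives chosen after seeing the data.

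For all 124 list genes, the medians as first computed were 0.026 under siRNA #1 and 0.038 under siRNA #2. Under siRNA #1 the median became -0.024 with equal totals and -0.030 without the 10 genes, and under siRNA #2 it became -0.010 with equal medians. At 1.5-fold, 15 were higher under siRNA #1 (12.1% of all genes) and 12 lower (1435 of all 12403 genes). Under siRNA #2, 18 were higher (11.3% of all genes) and 9 lower (1156 of all 12403 genes). At 4-fold all of these counts were 0. The number at least 2-fold lower under siRNA #1 was 3 as first computed (3.27% of all genes), 7 with 0.1 RPKM, 0 with 5 RPKM and 6 with equal totals. Under siRNA #2 it was 4 as first computed (2.27% of all genes) and 1 with 5 RPKM. The median of all genes became -0.029 under siRNA #1 (equal totals) and -0.0067 under siRNA #2 (equal medians). Under siRNA #2, the monomer-binding list became 0.13 at a mean of at least 5 RPKM and the myosin II list -0.017 without MYL9. The cause was not tested. Of 210 values for single members under the alternatives, 169 stayed within counting error and 0 changed sign. Depth limits TAGLN most, with 166 reads in si-Control.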
